A study of Mus musculus with 6 samples.

Results

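The antioxidant and glutathione genes comprised 36 genes of the enzymes that remove superoxide, peroxides and reactive electrophiles, together with the metallothioneins and the regulator pair NRF2 and KEAP1. For each gene, the probe sets that the array annotation assigned to it alone were collected, and the one with the highest mean over the 6 arrays stood for the gene. A probe set is the group of short array probes that together measure 1 transcript. Of the 36 genes, 33 had a probe set of their own. The 5 probe sets of Prdx1 also named Gm21399, and no probe set was named for Prdx5 or Prdx6 in the annotation used. Sod3, the extracellular superoxide dismutase, lay among the dimmest probe sets, with signals from 4.10 to 4.13 in all 6 arrays, and was not tested. The remaining 32 genes were tested among 12279 genes in all.

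RNA came from endothelial cells, which form the inner lining of vessels, isolated from mouse lung, kept at 0.5% oxygen for 16 h in both groups and measured on Affymetrix arrays. The 3 knockout arrays were of cells from mice with VE-Cadherin-Cre and both HIF-2a alleles floxed (floxed/floxed), in which Cre recombinase, driven by the endothelial VE-cadherin promoter, deletes Epas1, the gene of the hypoxia-inducible factor subunit HIF-2α. The 3 control arrays were described in different ways by the labels: as VE-Cadherin-Cre HIF-2a floxed/WT, as Hif-2a floxed/floxed and as wild type control. A control of the first kind would carry 1 deleted allele after Cre activity. The cells had been selected several times by endothelial surface markers. No array was at normal oxygen, so the effect of hypoxia on these genes was not measured. The age of the mice is not given in the sources used here. Nothing in the labels says that replicate arrays are of different animals or cultures, and the p-values cover the array-to-array spread alone, which may be technical.

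Superoxide dismutases turn superoxide into hydrogen peroxide, which catalase, the glutathione peroxidases and the peroxiredoxins reduce further. The peroxidases take their electrons from glutathione or thioredoxin, which reductases restore with NADPH, and the glutathione transferases join glutathione to electrophiles. NRF2 (Nfe2l2) is the transcription factor that switches on many of these genes, and KEAP1 holds it in the cytoplasm and directs its degradation until oxidants or electrophiles modify KEAP1. Metallothioneins are small cysteine-rich proteins that bind zinc and copper and are switched on by the metal sensor MTF1.

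The values are linear array intensities as deposited, called signals here, and differences are given as log2(signal + 16) in knockout minus control with the standard error (SE). Adjusted p-values come from limma, a linear model fitted to all 12279 genes, with Benjamini-Hochberg adjustment and a threshold of 0.05. The targeted gene was examined first. The Epas1 probe set had signals of 8920.4, 9396.5 and 9859.0 in knockout arrays, against 9611.0, 9590.3 and 9444.2 in control arrays, a log2 difference of -0.02 ± 0.04 (adjusted p = 0.753). A probe set outside the deleted part of a gene does not test the deletion, and which exons were deleted is not given in the sources used here, so the genotype labels were not checked by this value. The median signal was between 5.52 and 5.66 in each array. Among 15 endothelial markers 14 exceeded a signal of 16 in at least 1 array, with summed signals of 150740 to 169460 in knockout arrays and 178370 to 193220 in control arrays. Of the 14 tested, 4 were lower in knockout cells (28.6%, against 5.07% of all genes) and 0 higher: Tek by a log2 difference of -1.24, Erg by -0.67, Tie1 by -0.65 and Pecam1 by -0.34 (limma adjusted p = 0.0161, 0.0261, 0.0407 and 0.0413). In 7 of the 14 every knockout array was below every control array (against 12.8% of all genes). In 1, Robo4, every knockout array was above every control array (7.14%, against 23.4% of all genes). Robo4 did not pass (log2 difference 0.28, limma adjusted p = 0.0612). The 2 brightest, Egfl7 and Emcn, overlapped between groups and did not pass. The part of these endothelial markers in the differences of the antioxidant genes was not tested. The 8 fibroblast markers (Pdgfra and Col3a1 the brightest) and the 2 measured red cell markers (Hba-a1 and Alas2) were under 16 throughout. Of 8 smooth muscle and pericyte markers Tagln alone exceeded it, and Myh11 came next. Controls 1 and 3 resembled each other more than any other pair, with an SD of 0.14 for their log2 differences over the tested genes. The other pairs within a group had SDs between 0.31 and 0.68.

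Of the 32 tested antioxidant genes, 3 were higher in knockout cells (Keap1, Sod2 and Gpx1), 3 were lower (Mgst1, Srxn1 and Nfe2l2), and 26 did not pass the threshold. The share that passed was 18.8%, against 13.7% of all tested genes. In each direction 9.38% passed, against 8.64% of all genes for higher and 5.07% for lower. The shares of antioxidant genes and of all genes were thus close to each other for the higher direction, and the lower direction rested on 3 genes. The median log2 difference of the antioxidant genes was 0.02, against 0.01 for all genes, and the median size regardless of sign was 0.18, against 0.24. Of the 32 genes, 28 lay within 0.5 of 0 on the log2 scale.

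**Figure D1:**
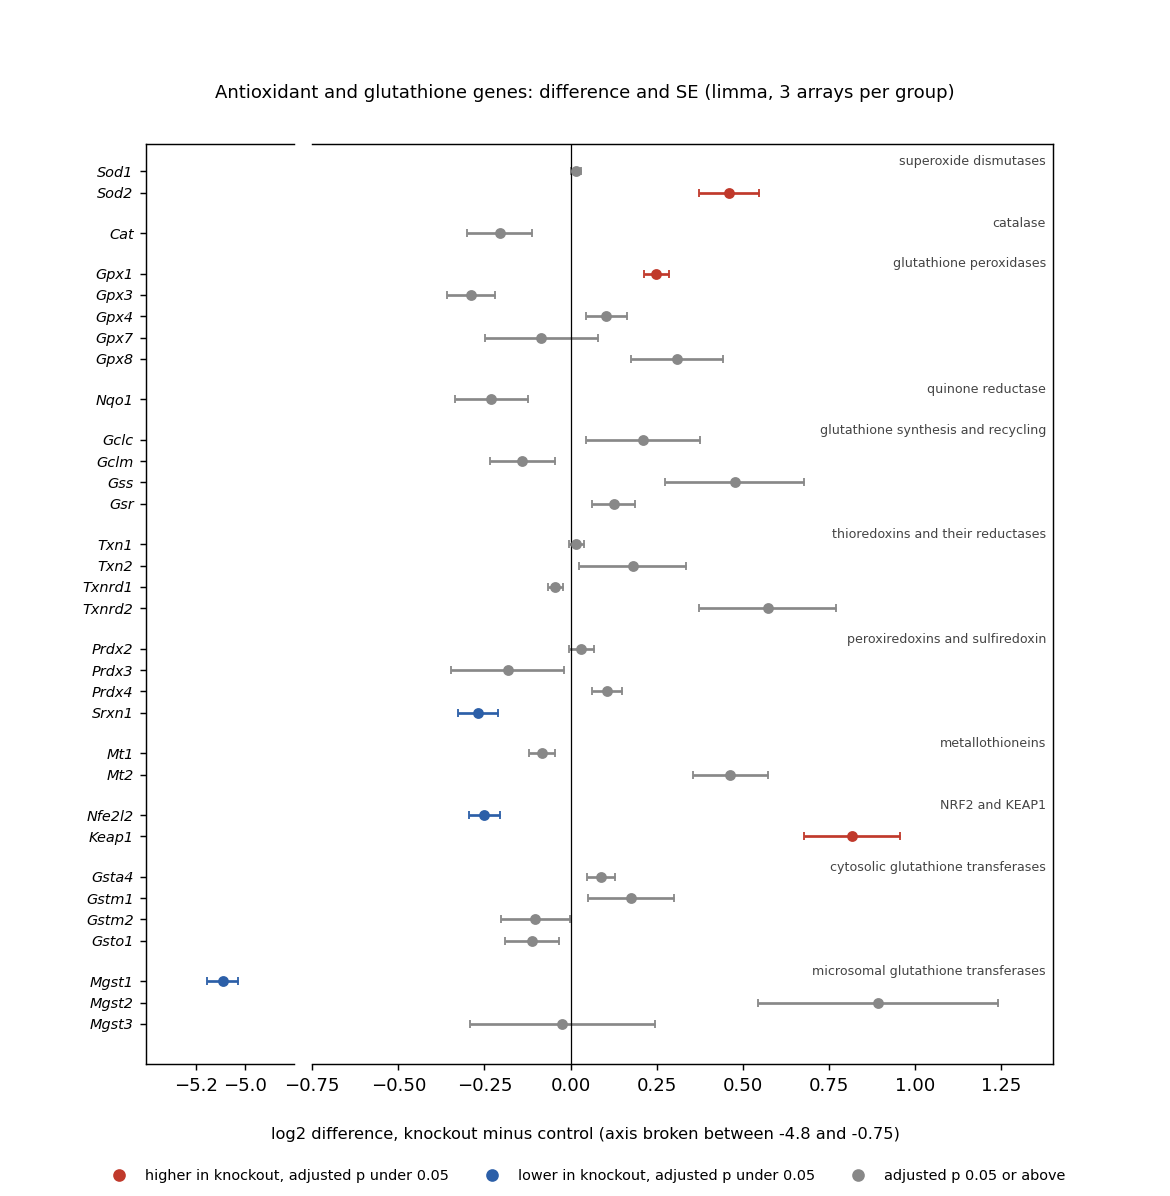
Log2 differences, knockout minus control, of the 32 tested antioxidant and glutathione genes, grouped by enzyme family, with bars for the SE from limma. Mgst1 stands alone at -5.09 on the left piece of the broken axis, and 28 of the 32 genes lie within 0.5 of 0.

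In 8 of the 32 genes (25.0%) every knockout array was above every control array, against 23.4% of all genes, and in 6 (18.8%) every knockout array was below, against 12.8% of all genes. The other 18 genes had overlapping groups. Of the 32 genes, 29 had a signal of 16 or more in all 6 arrays, while Gpx3 and Gsta4 stayed under 16 throughout and Mgst1 lay on both sides of it. The means of both groups, taken alone, were above the filter on dim probe sets for each of the 32 genes.

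The promoter stretches of 5 genes whose differences are described here show how the letters of known response elements lie before these genes. Each is the 250 bases before the annotated start in RefSeq, mouse build GRCm38.p6, written 5′ to 3′ on the strand of the gene. Mgst1 and Nfe2l2 are shown for the antioxidant response element bound by NRF2 with its small MAF partner, searched as TGACNNNGC. The match is in capitals, at 56 to 48 bases before the first annotated start of Mgst1 (chr6:138140277-138140526, plus strand), where it lies on the opposite strand, and at 240 to 232 bases before the start of Nfe2l2 (chr2:75704664-75704913, minus strand).
Mgst1: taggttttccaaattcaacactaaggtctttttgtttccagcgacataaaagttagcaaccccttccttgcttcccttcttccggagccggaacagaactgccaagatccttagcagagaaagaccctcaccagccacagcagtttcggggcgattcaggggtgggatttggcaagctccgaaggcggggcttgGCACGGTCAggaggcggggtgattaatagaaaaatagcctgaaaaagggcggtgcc
Nfe2l2: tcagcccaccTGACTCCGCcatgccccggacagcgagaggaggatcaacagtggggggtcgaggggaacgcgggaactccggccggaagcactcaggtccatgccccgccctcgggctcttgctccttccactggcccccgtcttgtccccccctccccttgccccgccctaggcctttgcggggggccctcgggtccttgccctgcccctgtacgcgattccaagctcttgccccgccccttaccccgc

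Keap1 is shown for the hypoxia response element, searched as ACGTG and GCGTG, with its 2 matches in capitals (chr9:21239333-21239582, minus strand).
Keap1: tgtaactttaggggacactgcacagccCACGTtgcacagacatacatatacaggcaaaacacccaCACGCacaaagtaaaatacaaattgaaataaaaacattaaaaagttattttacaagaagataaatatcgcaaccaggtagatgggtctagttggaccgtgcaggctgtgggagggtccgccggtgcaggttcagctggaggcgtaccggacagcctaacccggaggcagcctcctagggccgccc

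Mt1 (chr8:94178839-94179088, plus strand) and Mt2 (chr8:94172368-94172617, plus strand), neighbours on chromosome 8, are shown for the metal response element, searched as TGCACNC and TGCGCNC. Mt1 held 1 match and Mt2 held 3, in capitals.
Mt1: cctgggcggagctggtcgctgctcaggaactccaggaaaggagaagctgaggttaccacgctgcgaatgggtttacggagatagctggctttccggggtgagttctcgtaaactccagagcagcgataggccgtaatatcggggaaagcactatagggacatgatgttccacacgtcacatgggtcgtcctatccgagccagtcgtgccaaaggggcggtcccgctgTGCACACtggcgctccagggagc
Mt2: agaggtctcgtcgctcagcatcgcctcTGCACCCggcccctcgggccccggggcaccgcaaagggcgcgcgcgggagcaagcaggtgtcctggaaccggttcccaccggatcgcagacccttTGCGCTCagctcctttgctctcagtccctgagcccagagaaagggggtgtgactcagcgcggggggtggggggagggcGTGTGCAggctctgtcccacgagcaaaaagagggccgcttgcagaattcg

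All motifs were searched on both strands, over 38 such stretches of 31 of the genes and over 32851 stretches of all genes in the table. The antioxidant element letters were in 7 of 38 stretches, those of Gclm, Mgst1, Mt2, Nfe2l2, Prdx1, Sod1 and Txnrd1, and in 10.2% of all stretches. The second annotated start of Mgst1 had no such match. Other spellings of the antioxidant element were not searched, so a gene without a match may hold one of those. The hypoxia element letters were in 25 of 38 stretches and in 38.6% of all, and the metal element letters in 9 of 38 and in 21.4% of all. Of the genes past the threshold, Gpx1, Keap1, Sod2 and Srxn1 held hypoxia element letters, and Mgst1 and Nfe2l2 did not. In Mt2 a hypoxia match 52 to 48 bases before the start overlapped the metal match at 50 to 44. A match describes letters only and is not shown to be a binding site.

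Among the microsomal glutathione transferases, membrane enzymes that conjugate or reduce with glutathione, Mgst1 was lower in knockout cells by far more than any other antioxidant gene tested. Its signals were 7.28, 9.81 and 10.982 in knockout arrays, against 845.80, 827.55 and 866.07 in control arrays. All knockout arrays were under 16 and all control arrays were at 827.55 or more, with no overlap. The means were 9.36 ± 1.89 in knockout cells and 846 ± 19.3 in control cells (SD, n = 3 each), a log2 difference of -5.09 ± 0.06 (limma adjusted p = 6.35e-05). Against a floor of 16, set here as the lowest signal used for a fold, Mgst1 by this probe set was at least 52.9-fold lower in knockout cells. A second Mgst1 probe set was among the dimmest, with signals from 4.44 to 4.48 over the arrays of both groups. It was not tested and showed no difference, so the result rests on the brighter probe set. The promoter of its first annotated start, printed above, held the antioxidant element letters. In RNA of whole cultures, fewer cells of a type and less RNA per cell cannot be told apart.

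The leukocyte markers Cd68 and Cd14 were lower in knockout cells too, by log2 differences of -2.01 and -2.09, against -5.09 for Mgst1. Whether they have a part in the difference of Mgst1 was not tested. Of 9 measured leukocyte markers, 2 exceeded 16: Cd68 had signals of 1032.2, 1125.5 and 756.01 in knockout arrays, against 3834.4, 4252.5 and 3687.6 in control arrays (limma adjusted p = 0.00769), and Cd14 had 23.9, 42.7 and 24.7 in knockout arrays, against 186, 231 and 132 in control arrays (limma adjusted p = 0.0162). The summed signal of the list was 812 to 1199.9 in knockout arrays and 3851.5 to 4515.1 in control arrays. The defining markers Ptprc, Adgre1, Itgam, Csf1r and Lyz2 were under 16 in every array. Ager, a lung epithelial marker, was lower too (limma adjusted p = 0.0321), while the other 9 epithelial markers, with Nkx2-1 the brightest of them, were under 16.

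The other two microsomal enzymes did not pass. Mgst2 had signals of 85.2, 140 and 73.0 in knockout arrays, against 28.0, 71.0 and 41.5 in control arrays, a log2 difference of 0.89 ± 0.35 (limma adjusted p = 0.162). Every knockout array was above every control array, but knockout 3 exceeded control 2 by little. Mgst3 had 633, 669 and 370 in knockout arrays, against 533, 645 and 481 in control arrays, and the groups overlapped (log2 difference -0.02 ± 0.27, adjusted p = 0.954).

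NRF2 and its inhibitor KEAP1 moved in opposite directions. Keap1 had signals of 4050.8, 4246.5 and 3329.0 in knockout arrays, against 1986.9, 2528.1 and 2065.3 in control arrays. Knockout 3 was the lowest of its group and still above control 2, the highest of the controls. The log2 difference was 0.82 ± 0.14 (limma adjusted p = 0.031), with means of 3875 ± 483 in knockout cells and 2194 ± 292 in control cells (SD, n = 3 each). A dimmer Keap1 probe set had 26.1, 31.9 and 9.05 in knockout arrays, against 4.90, 4.90 and 4.44 in control arrays. Its log2 difference of 0.83 ± 0.27 had the same direction and did not pass over all probe sets (adjusted p = 0.142).

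Nfe2l2 had signals of 10819, 9709.2 and 10217 in knockout arrays, against 12352, 12058 and 12149 in control arrays. The control arrays lay close together and all knockout arrays were lower, with a log2 difference of -0.25 ± 0.04 (limma adjusted p = 0.0329).

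**Figure D2:**
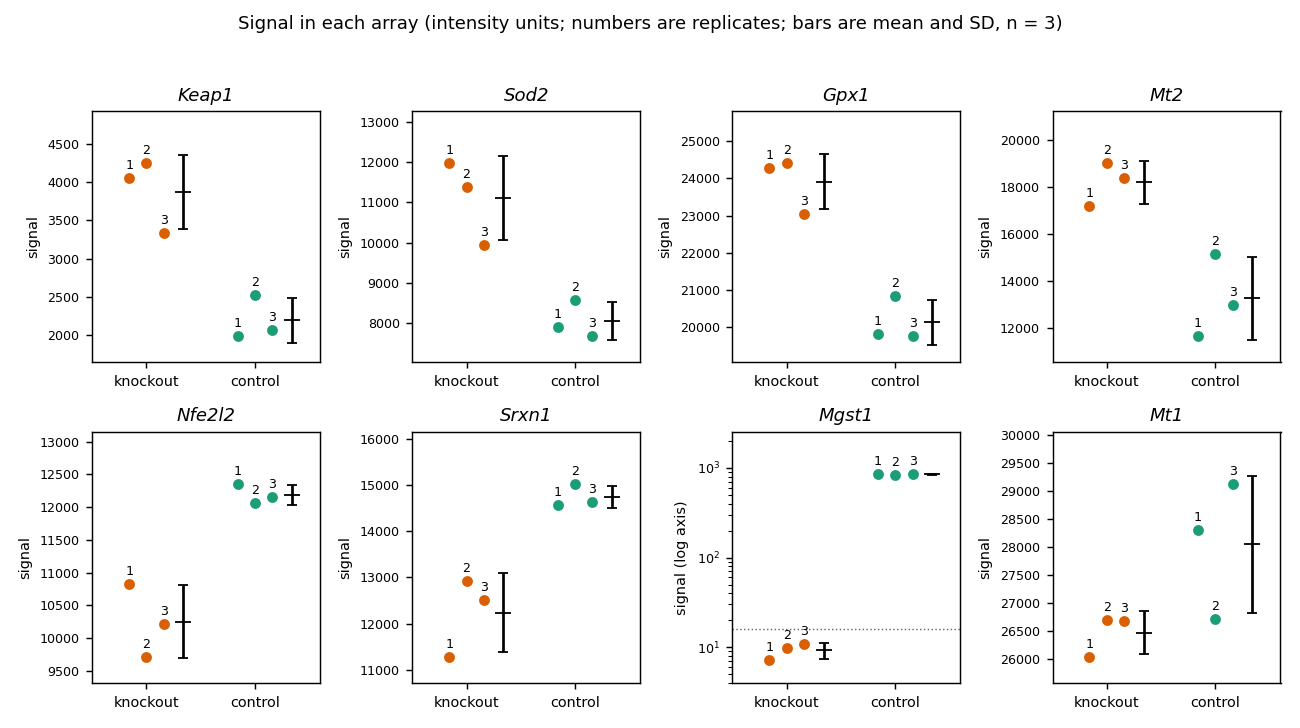
Signal in each array, in intensity units, of the 6 genes past the threshold and of Mt1 and Mt2, with replicate numbers beside the points and bars for mean and SD (n = 3). The axes start near the lowest value, and that of Mgst1 is logarithmic with a dotted line at 16; knockout and control arrays do not overlap in any panel, although Mt1 knockout 2 (26710) and control 2 (26726) are almost level.

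Both of the tested superoxide dismutases are abundant enzymes, Sod1 in the cytosol and Sod2 in the mitochondrial matrix. Sod2 had signals of 11974, 11388 and 9951.3 in knockout arrays, against 7892.1, 8583.7 and 7674.6 in control arrays. The groups did not overlap, and Sod2 was higher in knockout cells by 0.46 ± 0.09 on the log2 scale (limma adjusted p = 0.0379). Its next 2 probe sets by brightness had log2 differences of 0.58 and 0.50 and did not pass over all probe sets (adjusted p = 0.0922 and 0.0619). In that fit the brightest did not pass either (limma adjusted p = 0.0521). Sod1 had 40280, 40686 and 40639 in knockout arrays, against 40018, 40300 and 40063 in control arrays, with overlap. Its log2 difference was 0.01 ± 0.01 (adjusted p = 0.557).

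Catalase (Cat), which breaks down hydrogen peroxide in peroxisomes, had signals of 5715.6, 7000.4 and 6737.0 in knockout arrays, against 7775.6, 6976.5 and 7628.8 in control arrays. The groups overlapped only through knockout 2 and control 2, and the log2 difference was -0.21 ± 0.09 (limma adjusted p = 0.217). A second Cat probe set, dimmer than the first, had 2799.2, 3077.7 and 3085.0 in knockout arrays, against 3740.8, 4113.9 and 3962.6 in control arrays. This probe set was lower in knockout cells by a log2 difference of -0.40 ± 0.06 (limma adjusted p = 0.0301 over all 27022 probe sets above the filter, of which 7.65% passed).

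Of the 5 glutathione peroxidases, Gpx1, the main cytosolic one, was the only one past the threshold. Gpx1 had signals of 24287, 24409 and 23056 in knockout arrays, against 19811, 20824 and 19758 in control arrays. All knockout arrays were higher, by a log2 difference of 0.25 ± 0.04 (limma adjusted p = 0.0218). Gpx4, which reduces lipid peroxides in membranes, had 24615, 23985 and 21564 in knockout arrays, against 21098, 22300 and 21830 in control arrays, with overlap (0.10 ± 0.06 on the log2 scale, adjusted p = 0.306).

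The endoplasmic reticulum peroxidases Gpx7 and Gpx8 did not pass either. Gpx8 had 10576, 8086.9 and 10366 in knockout arrays, against 7823.9, 7084.9 and 8426.7 in control arrays (log2 difference 0.31 ± 0.13, adjusted p = 0.195), and Gpx7 had a log2 difference of -0.09 ± 0.16 (adjusted p = 0.8). Gpx3, the secreted plasma enzyme, had 7.56, 9.59 and 7.39 in knockout arrays, against 14.3, 15.3 and 11.1 in control arrays. All of these were under 16, so no fold is given (limma adjusted p = 0.0626).

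Glutathione is made by the glutamate cysteine ligase subunits Gclc and Gclm and by the synthetase Gss, and is restored from its oxidised form by the reductase Gsr. By their brightest probe sets none of the 4 genes passed in limma. An unadjusted p under 0.05 was found for 0 of them, against 3981 of all 12279 genes. Gclc, the catalytic subunit, had signals of 1652.9, 1316.8 and 1234.3 in knockout arrays, against 1040.6, 1407.2 and 1178.6 in control arrays (log2 difference 0.21 ± 0.16, limma adjusted p = 0.441). Gclm, the modifier subunit, had 3588.0, 3603.7 and 3200.7 in knockout arrays, against 3414.4, 4161.3 and 3904.6 in control arrays (-0.14 ± 0.09 on the log2 scale, adjusted p = 0.371). Both of these probe sets overlapped between groups. A second, dimmer Gclc probe set did not overlap (log2 difference 0.30 ± 0.07, limma adjusted p = 0.0845 over all probe sets). A dimmer Gclm probe set overlapped (-0.99 ± 0.50 on the log2 scale, adjusted p = 0.293).

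Gss had 428, 507 and 334 in knockout arrays, against 300.3, 348 and 246 in control arrays (log2 difference 0.48 ± 0.20, adjusted p = 0.186), with knockout 3 below control 2. Gsr had 15327, 15870 and 14786 in knockout arrays, against 13348, 15261 and 13620 in control arrays, and overlapped between groups (0.12 ± 0.06 on the log2 scale, adjusted p = 0.254). The quinone reductase Nqo1, a widely used NRF2 target, had 9258.7, 11775 and 11490 in knockout arrays, against 12428, 13119 and 12403 in control arrays. All knockout arrays were lower, but the log2 difference of -0.23 ± 0.11 did not pass (limma adjusted p = 0.215).

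None of the 4 thioredoxin and thioredoxin reductase genes passed in limma. An unadjusted p under 0.05 was found for 1 (Txnrd2), against 3981 of all 12279 genes. Txn1, cytosolic thioredoxin, had signals of 28012, 28231 and 28972 in knockout arrays, against 28168, 27720 and 28355 in control arrays (log2 difference 0.02 ± 0.02, limma adjusted p = 0.665). Its reductase Txnrd1 had 27890, 28106 and 29037 in knockout arrays, against 29020, 29591 and 29038 in control arrays (-0.04 ± 0.02 on the log2 scale, adjusted p = 0.27). The mitochondrial counterparts were Txn2, with 8890.7, 9261.3 and 7243.0 in knockout arrays against 7024.1, 8836.7 and 6605.7 in control arrays (0.18 ± 0.16, adjusted p = 0.488), and Txnrd2. Txnrd2 had 381, 389 and 289 in knockout arrays, against 238, 280.2 and 182 in control arrays. The groups did not overlap, and the log2 difference of 0.57 ± 0.20 did not pass (adjusted p = 0.13).

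Peroxiredoxins reduce peroxides with thioredoxin, and sulfiredoxin (Srxn1) restores them after overoxidation. Srxn1 had signals of 11283, 12931 and 12516 in knockout arrays, against 14571, 15016 and 14624 in control arrays. All knockout arrays were lower, with a log2 difference of -0.27 ± 0.06 (limma adjusted p = 0.0486). Its 3 dimmer probe sets had log2 differences of -0.25, -0.35 and -0.29 and did not pass over all probe sets. In that fit the brightest did not pass either (limma adjusted p = 0.0648). Prdx4, the peroxiredoxin of the endoplasmic reticulum, had 27362, 30406 and 28406 in knockout arrays, against 26794, 26492 and 26686 in control arrays, without overlap (0.11 ± 0.04 on the log2 scale, adjusted p = 0.176). The cytosolic Prdx2 and mitochondrial Prdx3 overlapped between groups, with log2 differences of 0.03 ± 0.04 (adjusted p = 0.606) and -0.18 ± 0.16 (adjusted p = 0.507).

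The metallothioneins Mt1 and Mt2, whose promoters are printed above, had differences of opposite sign that did not pass. Mt2 had signals of 17184, 18998 and 18388 in knockout arrays, against 11641, 15144 and 12965 in control arrays. The groups did not overlap, with control 2 nearest to the knockout arrays (log2 difference 0.46 ± 0.11, limma adjusted p = 0.0592). Mt1 had 26044, 26710 and 26682 in knockout arrays, against 28306, 26726 and 29126 in control arrays (-0.08 ± 0.04 on the log2 scale, adjusted p = 0.217). The name of this Mt1 probe set marks probes able to match other transcripts. A dimmer Mt1 probe set without that mark had 156, 190 and 91.1 in knockout arrays, against 196, 225 and 218 in control arrays. Its groups did not overlap, and its log2 difference of -0.55 ± 0.27 did not pass over all probe sets (limma adjusted p = 0.278).

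None of the 4 cytosolic glutathione transferases passed in limma. An unadjusted p under 0.05 was found for 0 of them, against 3981 of all 12279 genes. Gstm1 had signals of 9682.7, 10045 and 7836.8 in knockout arrays, against 7857.0, 8953.8 and 7522.2 in control arrays (log2 difference 0.18 ± 0.13, limma adjusted p = 0.399). Gstm2 and Gsto1 had log2 differences of -0.10 ± 0.10 (adjusted p = 0.542) and -0.11 ± 0.08 (adjusted p = 0.391). Gsta4, which handles the lipid peroxidation product 4-hydroxynonenal, stayed under 16 in every array (adjusted p = 0.211).

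The calls other than Mgst1 were lost on leaving out single arrays, while the log2 differences stayed of like size. Leaving out 1 array also moved the calls over all genes, to between 206 (without control 1) and 3003 (without knockout 3), against 1684 with all 6 arrays. Mgst1 passed without any 1 of the 6 arrays, with log2 differences from -5.14 to -5.03 and limma adjusted p from 0.000324 to 0.0033. Keap1 and Gpx1 passed only without knockout 3 or without control 2 (adjusted p from 0.0258 to 0.124 for Keap1 and from 0.0219 to 0.103 for Gpx1), with log2 differences of 0.75 to 0.92 for Keap1 and 0.23 to 0.27 for Gpx1. Sod2 passed only without knockout 3 (0.0216 to 0.146), at 0.40 to 0.54 on the log2 scale. Srxn1 passed in none of the 6 (0.0587 to 0.16), at log2 differences of -0.31 to -0.21, and neither did Nfe2l2 (0.0506 to 0.138), at -0.29 to -0.21. Mt2 passed without control 2 (0.0407), and Gpx4 without knockout 3 (0.0464). The direction of Mgst1, Keap1, Sod2, Gpx1, Srxn1, Nfe2l2 and Mt2 was the same under all 19 alternative settings. Some of these settings, such as the other filters and the replicate block, leave the log2 difference unchanged by design, so the direction could not differ there.

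**Figure D3:**
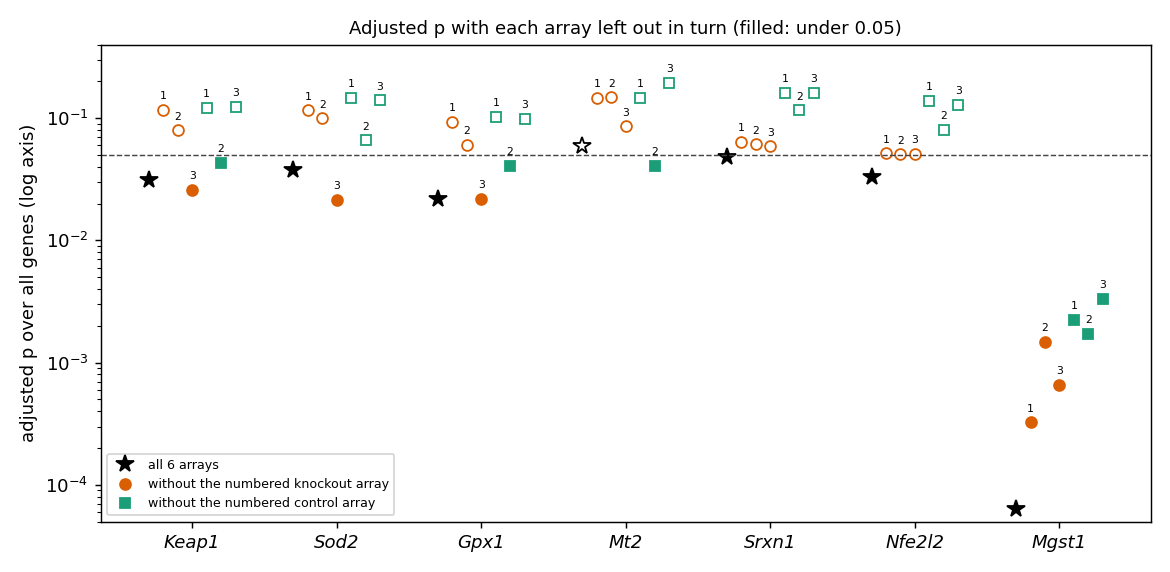
Adjusted p from limma over all genes (log axis) of 7 genes with all 6 arrays (stars) and with each numbered knockout array (circles) or control array (squares) left out; filled symbols are under 0.05, the dashed line. Mgst1 stays between 6.35e-05 and 0.0033, while Srxn1 and Nfe2l2 pass only with all 6 arrays.

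The mean log2 signal of the spike-in controls, RNA added in known amounts, was 11.03, 11.08 and 10.86 in knockout arrays, against 10.66, 10.88 and 10.78 in control arrays, and the groups overlapped through knockout 3 and control 2. With it as a covariate, Mgst1 alone of the 6 passed, and its log2 difference was -5.02 (limma adjusted p = 0.00416). Srxn1 and Nfe2l2 stayed near their sizes without the covariate, at log2 differences of -0.28 and -0.22 (adjusted p = 0.208 and 0.195). Keap1 was at 0.48, against 0.82 without the covariate, and Sod2 at 0.29, against 0.46 (adjusted p = 0.0609 and 0.181). Gpx1 was at 0.17, against 0.25 (adjusted p = 0.0822). Knockout 3 was the knockout array nearest to the control mean in 14 of 32 antioxidant genes (43.8%), against 64.3% of all genes. Control 2 was the control array nearest to the knockout mean in 19 (59.4%), against 52.1%.

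Gpx1 and Keap1 both lie on chromosome 9, as do Gclc and Gsta4. Of 681 tested genes on that chromosome, 24.4% were higher in knockout cells and 2.06% lower, with a median log2 difference of 0.21. Whether the position on chromosome 9 has a part in the differences of Gpx1 and Keap1 was not tested. Sod2 lies on chromosome 17, where 11.9% were higher, and Mgst1 on chromosome 6, where 5.93% were lower. Nfe2l2 and Srxn1 lie on chromosome 2, where 5.46% were lower.

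**Figure D4:**
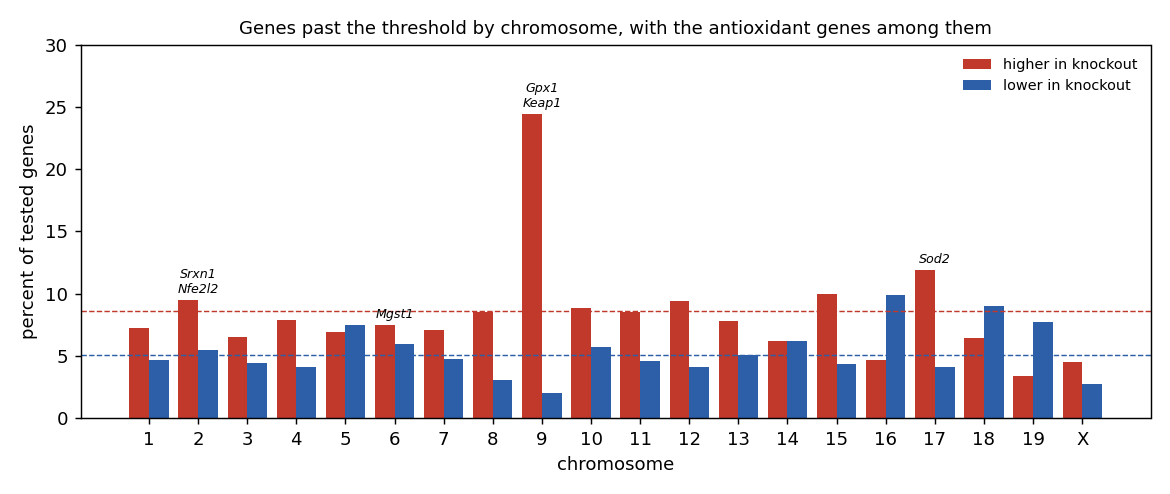
Percent of the tested genes on each chromosome that passed the threshold higher or lower in knockout, with the names of antioxidant genes past the threshold in either direction and dashed lines at the shares of all genes (8.64% higher, 5.07% lower). Chromosome 9, with Gpx1 and Keap1, reaches 24.4% higher.

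Of 172 other genes of the same pathways, 159 had a probe set of their own and 133 were tested: 18 were higher (13.5%, against 8.64% of all genes), 6 were lower (4.51%, against 5.07%) and 109 did not pass, with a median log2 difference of 0.01. Only Tmx2, a thioredoxin-related membrane protein, passed without any 1 of the 6 arrays. Tmx2 had signals of 8840.6, 8858.0 and 8967.7 in knockout arrays, against 7288.4, 7227.3 and 6996.3 in control arrays, without overlap (log2 difference 0.31 ± 0.02, limma adjusted p = 0.0056). It was the only one called among 18 further thioredoxin system genes (5.56% higher, against 8.64% of all genes). The counts by family that follow rest on 5 to 24 genes each and are descriptions with no test of the family.

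Several glutathione peroxidases and the thioredoxin reductases carry selenocysteine, the selenium-containing amino acid, in their active sites. Of 16 genes of selenoproteins and their synthesis, 4 were higher (Sephs1, Sephs2, Pstk and Eefsec, genes of selenocysteine synthesis and insertion or related to them; 25.0%, against 8.64% of all genes) and 1 was lower (Selenop, the selenium carrier; 6.25%, against 5.07%). Selenop had signals of 675, 545 and 781 in knockout arrays, against 2596.4, 2247.1 and 2463.2 in control arrays (log2 difference -1.86 ± 0.15, limma adjusted p = 0.00677), and passed in 5 of the 6 fits that left out 1 array. Sephs2, which makes selenophosphate, had 22803, 22540 and 20584 in knockout arrays, against 13777, 14755 and 12659 in control arrays (0.68 ± 0.07 on the log2 scale, adjusted p = 0.0128). Sephs1 differed by 0.35 ± 0.03 (adjusted p = 0.01).

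Of 15 genes of NADPH supply, 4 were higher (Mthfd1, Mthfd2, Me1 and Nnt; 26.7%, against 8.64% of all genes) and none lower. Mthfd1, a folate enzyme with an NADPH-yielding step, had signals of 8090.4, 8484.3 and 7242.4 in knockout arrays, against 4104.8, 4464.3 and 3861.1 in control arrays (log2 difference 0.93 ± 0.08, limma adjusted p = 0.00894). Of 14 genes of glutathione precursors, breakdown and export, Slc1a4, Slc7a5 and Chac1 were higher (21.4%, against 8.64% of all genes). Abcc1 was lower (7.14%, against 5.07%). Slc1a4, a neutral amino acid transporter, had 3188.2, 3526.7 and 2998.0 in knockout arrays, against 1444.5, 1841.7 and 1583.8 in control arrays (0.99 ± 0.11 on the log2 scale, adjusted p = 0.0139). The cystine transporter gene Slc7a11 did not pass (-0.37 ± 0.16, adjusted p = 0.191).

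Among 14 other glutathione transferases and relatives, Gstt2, Gstt3 and Alox5ap were higher (21.4%, against 8.64% of all genes). Gstm5 was lower (7.14%, against 5.07%). Of 24 further NRF2 targets and partners, Akr1c13 was higher (4.17%, against 8.64% of all genes). Bach1, a repressor at the same promoter elements, was lower (4.17%, against 5.07%), while the heme oxygenase gene Hmox1 did not pass. Hmox1 had signals of 20776, 20327 and 18347 in knockout arrays, against 20663, 22064 and 20036 in control arrays (log2 difference -0.08 ± 0.07, limma adjusted p = 0.464). Of 12 stress and repair genes, Pon3 and Park7 were higher (16.7%, against 8.64% of all genes) and Pon2 was lower (8.33%, against 5.07%). The paraoxonase genes Pon3 and Pon2 differed by 0.69 ± 0.06 (adjusted p = 0.00894) and -0.43 ± 0.04 (adjusted p = 0.0111).

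Of 8 genes of superoxide sources and copper handling, Xdh, the gene of xanthine dehydrogenase, was lower (12.5%, against 5.07% of all genes). None of the 7 metal response genes passed in limma (1 had an unadjusted p under 0.05), with Mtf1 at -0.16 ± 0.06 (adjusted p = 0.133). None of 5 further peroxidases and glutaredoxins passed either (2 had an unadjusted p under 0.05). Of all 12279 genes, 3981 had an unadjusted p under 0.05. Txnip, which binds thioredoxin, differed by -0.09 ± 0.07 (adjusted p = 0.446). G6pdx had no probe set of its own here. Mthfd2, Me1, Nnt, Slc7a5, Chac1, Abcc1, Gstt2, Gstt3, Alox5ap, Gstm5, Akr1c13, Bach1, Park7, Pstk, Eefsec and Xdh were named after their values were seen.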

How the data were processed

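RNA was amplified with NuGEN Ovation, biotin-labelled and hybridised to Affymetrix arrays, per the labels' protocols. The authors deposited 1 linear intensity per probe set and array. MAS5 and GCRMA appear in the submitters' processing notes with neither version nor role, so which of them made the values is not given in the sources used here. From the values, arrays had nearly equal distributions, and no further normalization was applied. The table held 45101 probe sets, 64 of them controls. The annotation named 1 gene for 34958, several for 932, and did not list 9211. Of the 34958, 34754 matched a current gene, all under the same symbol.

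Titles gave the groups. Values were log2(intensity + 16), which understates changes of dim genes. Probe sets in the dimmest 40% by mean (a signal under 4.94) were left out, leaving 27022, and the brightest probe set stood for each gene. Groups were compared with lmFit and eBayes of limma 3.58.1 under R 4.3.3, as two-sided tests, with Benjamini-Hochberg adjustment over all genes and a threshold of 0.05. The floor for a fold was 16, used where each array of a group was under it. The brightest probe sets of 6 tested members, Srxn1, Mt1, Gpx4, Txn2, Gstm1 and Gsto1, carry names that mark probes able to match other transcripts. The number of arrays limits precision.

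Named were every member, Epas1, the 8 pathway genes with the smallest p, Hmox1, Slc7a11, G6pdx, Txnip, Mtf1, and the 2 brightest genes of each marker list. Further markers (Tek, Erg, Tie1, Pecam1, Robo4, Ptprc, Adgre1, Itgam, Csf1r and Lyz2) were named after their values were seen. The members and lists were chosen with earlier results of these data known. Alternatives were other scalings, filters, pseudocounts, eBayes settings, array weights, means of probe sets, a replicate block, a spike-in covariate, and arrays averaged or left out. Promoter sequences and chromosomes came from RefSeq tables of GRCm38.p6. Figures were drawn with matplotlib 3.10.9.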

Additional observations from a re-analysis of the deposited data

How the results depend on the processing

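The direction of the 6 genes past the threshold was the same under all 19 alternatives. The other filters, the eBayes setting and the replicate block leave the log2 difference unchanged by design, so the direction could not differ there. Mgst1 passed under each of the 19 (log2 -6.37 to -3.63). The other 5 depended on the settings. With 1684 genes called, of which 3 and 3 were antioxidant genes higher and lower, and 18 and 6 other pathway genes, the counts moved as follows. Without the filter, which tests 18193 genes, 893 genes were called, 1 antioxidant gene higher and 1 lower, and 3 pathway genes lower. Scaling to the 75th percentile left 1 antioxidant gene lower, as did leaving out the lowest 60%. A pseudocount of 64 left 3 pathway genes lower, and the mean of probe sets left 1 antioxidant gene higher. Array weights called 6608 genes, 13 and 9 antioxidant genes and 39 and 37 pathway genes. The replicate block called 2993 genes, 7 antioxidant genes higher and 15 pathway genes lower. Nothing in the labels says that the replicate numbers pair the arrays, and same-numbered deviations correlated at -0.46, 0.84 and 0.80. All 6 calls remained with the block. The spike-in covariate called 442 genes (37.1% higher, against 63.0%), 0 and 1 antioxidant genes, and 5 and 3 pathway genes. With controls 1 and 3 averaged, 193 were called (49.2% higher), 0 and 1 antioxidant genes, and 1 and 0 pathway genes. Without control 2 and knockout 3, 4631 were called, 10 and 1 antioxidant genes, and 35 and 17 pathway genes. Leaving out 1 array gave 206 (without control 1) to 3003 (without knockout 3) genes called, 0 to 4 antioxidant genes higher and 1 lower each time, and 1 to 26 and 0 to 7 pathway genes. Of 606 antioxidant gene values over the alternatives, those unchanged by design included, 21 changed sign, and 1 of these 21 was past the threshold (Mgst3). Sod1 was at -0.0020 with quantile normalization and -0.0926 with the mean of probe sets. Txn1 was at -0.0058 with quantile normalization, -0.0049 with array weights and -0.0072 when control 2 and knockout 3 were left out. Array weights gave Gpx7 0.0165, Prdx3 0.11 and Mgst3 0.22. The spike-in covariate gave Gpx4 -0.0247, Gclc -0.10, Gsr -0.0122, Txn2 -0.15, Prdx2 -0.0198 and Gstm1 -0.10. Without control 2 and knockout 3, Gpx7 was at 0.15, Gstm2 at 0.0379 and Mgst3 at 0.35 (limma adjusted p = 0.0498). Leaving out 1 array gave -0.20 to 0.0510 for Gpx7 and -0.17 to 0.24 for Mgst3. The causes were not tested. Over all probe sets, Sod2 (adjusted p = 0.0521) and Srxn1 (0.0648) did not pass. Of 32 further probe sets of 19 genes, 31 had the direction of the brightest, the exception being one of Sod1, and 1 passed (Cat).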
